A study of Homo sapiens with 6 samples.

Results

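The 7 genes described here encode the cleavage and polyadenylation specificity factor (CPSF) and its partner symplekin: CPSF1, CPSF2, CPSF3, CPSF4, FIP1L1, WDR33 and SYMPK. Their transcript ends were taken from hg19 windows drawn around each gene on its own strand, and the genes were chosen with earlier results of these data known. The windows held 37 of the 49662 poly(A) sites found on the nuclear chromosomes, and each of the 7 genes had at least 2 of them. The libraries were made by A-seq, which primes reverse transcription at the junction of transcript and poly(A) tail and so counts reads at the last templated nucleotide of polyadenylated RNA. The cells were HEK293, an established human embryonic kidney line.

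There were 6 libraries, 1 for each group. Fragmentation by alkaline hydrolysis was used for cells that received no siRNA, cells given the control siRNA scrambled-A, cells given an Ambion siRNA (S224836) against CF Im25, and cells given an Ambion siRNA (S21772) against CF Im59. RNase I digestion was used for a second library of scrambled-A cells and for cells given a Dharmacon siRNA duplex against CF Im68. Each target had 1 siRNA, and cells given siRNA were harvested 3 days later. With 1 library in each group there was no replicate error and no test, so intervals below are 95% intervals of counting error, and differences are described by size. Reads amplified by PCR without molecular identifiers are not independent molecules, so these intervals are a lower limit on the true error. Each siRNA was set against the scrambled library of its own fragmentation method, which means that the CF Im25, CF Im59 and untreated comparisons all share 1 control.

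CPSF is the part of the 3′ end processing machinery that reads the AAUAAA signal and cuts the pre-mRNA downstream of it. CPSF3 is the endonuclease, CPSF2 is its catalytically inactive homologue, and SYMPK is the scaffold that holds both and contacts the cleavage stimulation factor CstF. CPSF1 is the large scaffold of the recognition module, WDR33 and CPSF4 bind the AAUAAA hexamer, and FIP1L1 binds U-rich RNA and poly(A) polymerase. CF Im is a separate factor that binds UGUA upstream of the cleavage site. Its small subunit CF Im25 is encoded by NUDT21, its larger subunits CF Im59 and CF Im68 by CPSF7 and CPSF6, and its loss is known to move many transcripts to sites nearer the stop codon.

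Annotated ends of 5 of these genes are shown because sites of SYMPK and WDR33 differed with the siRNAs, and those of CPSF3, CPSF4 and FIP1L1 with the fragmentation method. The WDR33 end shown lies at another site, which had too few reads to be tested. None is shown for CPSF2, whose window is shorter than its annotated gene. For every gene, taking the last annotated end as the last site was an assumption. The sequences are the last 30 bases of GENCODE release 29 transcripts, with the hexamer AATAAA, or its frequent variant ATTAAA, in capitals.
SYMPK-213, upstream end: ttctggctcAATAAAgacttcctggttgac
SYMPK-201, last end: aagatgtgaacttgggcaagttactgaaaa
WDR33-202, gene-body end: tctgaccttcaAATAAAacttattatgtat
CPSF3-201, last end: aaAATAAAatgcattcgtttctctggggga
CPSF4-201, last end: ttttatgaaatggATTAAAgcttgtttttt
FIP1L1-202, last end: ttcaaaAATAAAaagacagcaatgacttta
At least 1 of these hexamers, searched on the transcript strand, was in the last 30 bases of 48.6% of 48197 distinct ends of protein-coding transcripts. Of the ends shown, the last end of SYMPK held neither hexamer and that of CPSF4 held the variant. TGTA, the DNA form of the CF Im motif, was in the last 100 bases of 45.8% of those ends. It was found once in the last 100 bases of CPSF3-201, FIP1L1-202 and WDR33-202 and was not in those of SYMPK-213, SYMPK-201 or CPSF4-201. The annotation is on GRCh38, so ends were related to the hg19 sites only by spacing, with the last annotated end taken as the last site. SYMPK-213 ended 3478 nt before the last annotated end and the SYMPK site at chr19:46322167 lay 3459 nt before the last site. WDR33-202 ended 34366 nt before the last annotated end, and a site lay 34388 nt before the last one. That site, chr2:128492995, had at most 45 reads in a library and was not tested in any comparison. Agreement within 40 nt was taken as the same end, a tolerance chosen after the spacings were seen.

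Library totals ran from 5351980 reads (scrambled siRNA, RNase I) to 18183644 reads (no siRNA), and 84.3% to 91.2% of them lay in units, which are runs of sites no more than 5 kb apart. Levels are CPM, reads per 1000000 of these reads. The targeted genes were lowest in the libraries named for them. NUDT21 was at 116 CPM in untreated cells, 96 in scrambled, 13 in CF Im25 and 101 in CF Im59 alkaline libraries, and at 168 and 307 CPM in the scrambled and CF Im68 RNase I libraries. CPSF7 was at 30.7 CPM after CF Im59 siRNA and 56.5 to 84.7 CPM in the other 5 libraries, and CPSF6 at 45.5 CPM after CF Im68 siRNA and 55.3 to 133 CPM elsewhere. A bulk level does not separate fewer expressing cells from less RNA per cell.

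In the cleavage module, CPSF3, the nuclease (chr2:9563000-9614000, plus strand), was at 52.1 CPM without siRNA, 54.4 with scrambled, 28.8 with CF Im25 and 36 with CF Im59 siRNA, and at 130 and 90.9 CPM in the scrambled and CF Im68 RNase I libraries. Each of the 3 knockdown libraries was below the controls of its own fragmentation method, and the untreated and scrambled intervals (48.7 to 55.7 and 49.6 to 59.5 CPM) overlapped. CPSF2, its inactive partner (chr14:92588000-92634000, plus strand), was at 48.7, 59.5, 87.5 and 33.9 CPM in the untreated, scrambled, CF Im25 and CF Im59 alkaline libraries and at 83.2 and 115 CPM in the scrambled and CF Im68 RNase I libraries. CPSF2 was thus higher than both alkaline controls after CF Im25 siRNA and lower than both after CF Im59 siRNA. SYMPK, the scaffold (chr19:46317000-46367000, minus strand), was at 21.3, 27, 47.2 and 29 CPM in the same alkaline order and at 101 and 99.2 CPM with RNase I. Its intervals in the scrambled (23.6 to 30.7 CPM) and CF Im59 (26 to 32.3 CPM) libraries overlapped, and CF Im25 stood above the other alkaline libraries.

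In the recognition module, CPSF1 (chr8:145617000-145634800, minus strand) was at 35.7, 34.6, 37.0 and 38.2 CPM in the untreated, scrambled, CF Im25 and CF Im59 alkaline libraries and at 66.6 and 62.4 CPM in the scrambled and CF Im68 RNase I libraries. WDR33 (chr2:128456000-128569000, minus strand) was at 61.0, 71.8, 65.1 and 70.5 CPM in that order and at 52.3 and 47.3 CPM with RNase I. CPSF4 (chr7:99036000-99056000, plus strand) had the fewest reads, 87 to 216 in any library, and was at 9.86, 11.9, 13.9 and 7.55 CPM with alkaline hydrolysis and at 25.0 and 19.7 CPM with RNase I. FIP1L1 (chr4:54243000-54328000, plus strand) was at 27.8, 33.4, 43.7 and 41.1 CPM and at 69.8 and 68.3 CPM. Both FIP1L1 knockdown values from alkaline libraries were above both alkaline controls, and the intervals of CF Im25 (39.7 to 48.1) and CF Im59 (37.5 to 45.0) overlapped. This rise lay mostly at a site in the gene body, chr4:54303521, at 12.7, 15.6, 27.9 and 24.6 CPM in the same alkaline order. The last FIP1L1 site, chr4:54325841, was at 4.84, 4.96, 3.52 and 5.21 CPM. Over all 7 genes, the highest alkaline value was 1.10 times the lowest for CPSF1, 1.18 for WDR33, 1.57 for FIP1L1, 1.84 for CPSF4, 1.89 for CPSF3, 2.22 for SYMPK and 2.58 for CPSF2. The plot of levels by library shows these values gene by gene.

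**Figure D1:**
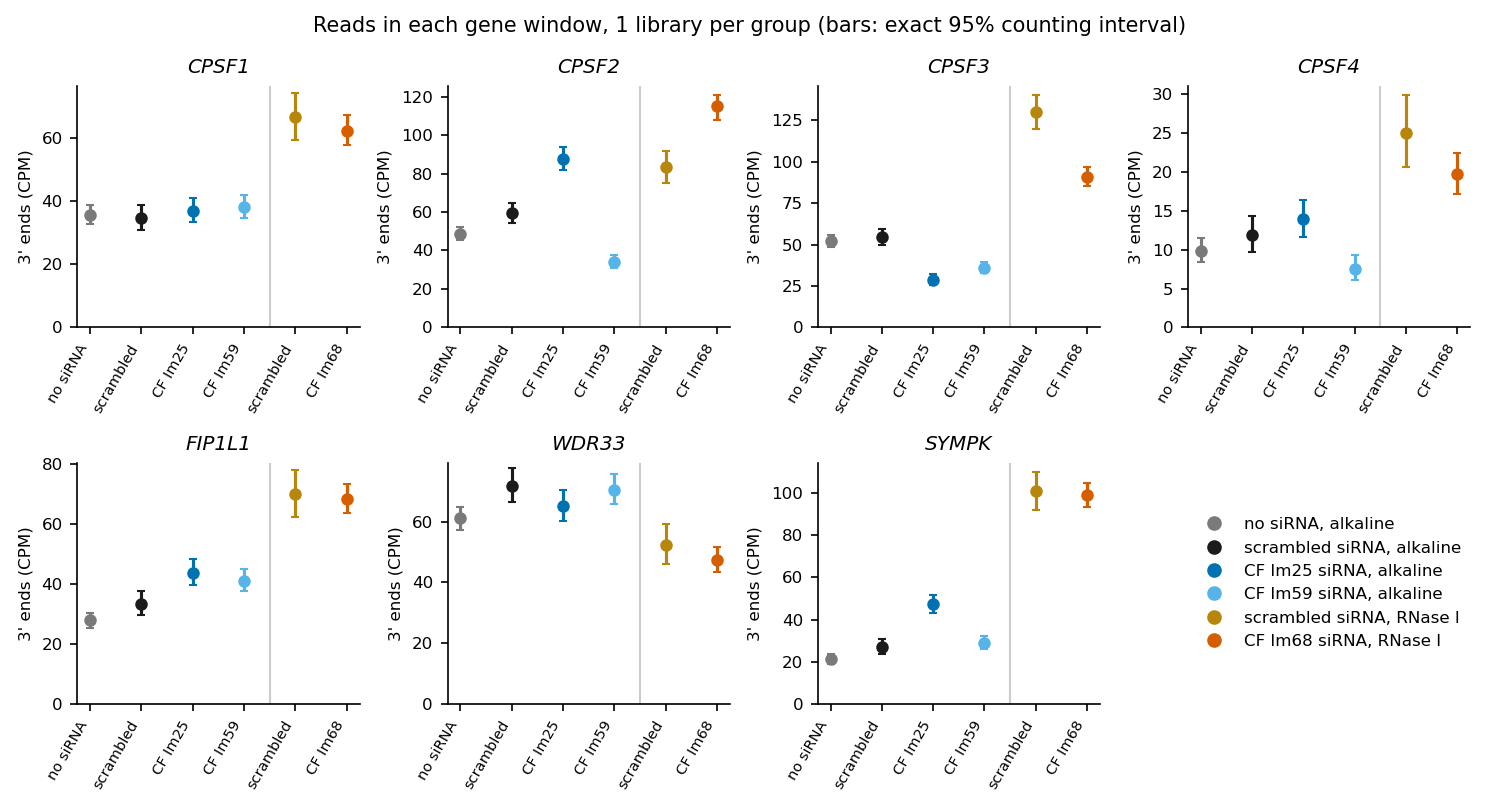
Level of each gene (y axis, 3′ end reads in the gene window as CPM) in the 6 libraries (x axis), alkaline on the left of the grey line and RNase I on the right; points are single libraries and bars exact 95% counting intervals. CPSF3 is lower in each knockdown library than in its control, SYMPK reaches 47.2 CPM after CF Im25 siRNA against 21.3 to 29 CPM in the other alkaline libraries, and WDR33 is the 1 gene whose RNase I values lie below all alkaline values.

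After CF Im25 siRNA no gene of the 7 passed 2-fold in total reads. A total was called where it differed 2-fold or more, with 50 reads or more in 1 library and a counting interval excluding 1. This rule called 25.2% of all units in this comparison (12.1% lower). A gene total sums its whole window, which can span several units, so here and below the share over units is not a like-for-like background. The largest increase was SYMPK, 1.75 times the scrambled level (1.49 to 2.06), followed by CPSF2 at 1.47 times (1.32 to 1.64) and FIP1L1 at 1.31 times (1.12 to 1.53). CPSF3 was 1.89-fold lower (1.63 to 2.20). The intervals of CPSF1, CPSF4 and WDR33 included 1. The median log2 ratio was 0.22 over the 7 genes and 0.00 over all units tested. Against the untreated library SYMPK was 2.22 times higher (1.92 to 2.55), which passed the rule as 1 of 7 genes, where 9.86% of units were called higher. CPSF3 was 1.81-fold lower against that library, and CPSF2 was 1.79 times higher.

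After CF Im59 siRNA the rule called 0 of the 7 genes and 19.7% of all units (11.1% lower). CPSF2 was 1.75-fold lower than with scrambled siRNA (1.53 to 2.00), CPSF4 1.57-fold lower (1.17 to 2.12) and CPSF3 1.51-fold lower (1.32 to 1.73). FIP1L1 was the gene with an interval above 1, at 1.23 times (1.06 to 1.43). SYMPK, the most raised gene in the CF Im25 library, was at 1.07 times the scrambled level here (0.906 to 1.28). The median log2 ratio was -0.03 over the 7 genes and -0.06 over all units tested.

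After CF Im68 siRNA, within the RNase I libraries, 0 of the 7 genes and 18.1% of all units (6.95% lower) were called. CPSF2 was 1.38 times the scrambled level (1.23 to 1.55), CPSF3 was 1.43-fold lower (1.29 to 1.58) and CPSF4 was at 0.79 times (0.628 to 0.998). SYMPK, at 0.983 times (0.882 to 1.10), and FIP1L1, at 0.978 times (0.858 to 1.12), had intervals around 1. CPSF3 was therefore lower in each of the 3 knockdown libraries than in its own control, by less than 2-fold each time. After CF Im25 and CF Im59 siRNA the last CPSF3 site, chr2:9613230, was at 0.506 and 0.641 times. After CF Im68 siRNA it was at 0.837 times (0.739 to 0.948), and the site 26 nt upstream at 0.468 times (0.383 to 0.573). That upstream site had 3 to 5 reads in each alkaline library. The median log2 ratio in the CF Im68 comparison was -0.09 over the 7 genes and 0.07 over all units tested. The CF Im25 and CF Im59 values share their control library, so they are not independent of each other. Scaling by trimmed means of M values (TMM) raised log2 ratios in this comparison by 0.18 and moved the CPSF3 value toward 1 without taking it past.

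Untreated and scrambled cells gave 0 calls among the 7 genes and 8.58% among all units. All the genes but CPSF1 were lower in the untreated library (CPSF3 at 0.958 times and above 1 with TMM scaling), and the intervals of CPSF2, FIP1L1, WDR33 and SYMPK excluded 1, with SYMPK lowest at 1.27-fold below (1.07 to 1.5). TMM raised log2 ratios by 0.11 here. The median log2 ratio was -0.27 over the 7 genes and -0.04 over all units tested. Differences of about this size between the alkaline controls are thus part of the spread that the knockdown values are read against.

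**Figure D2:**
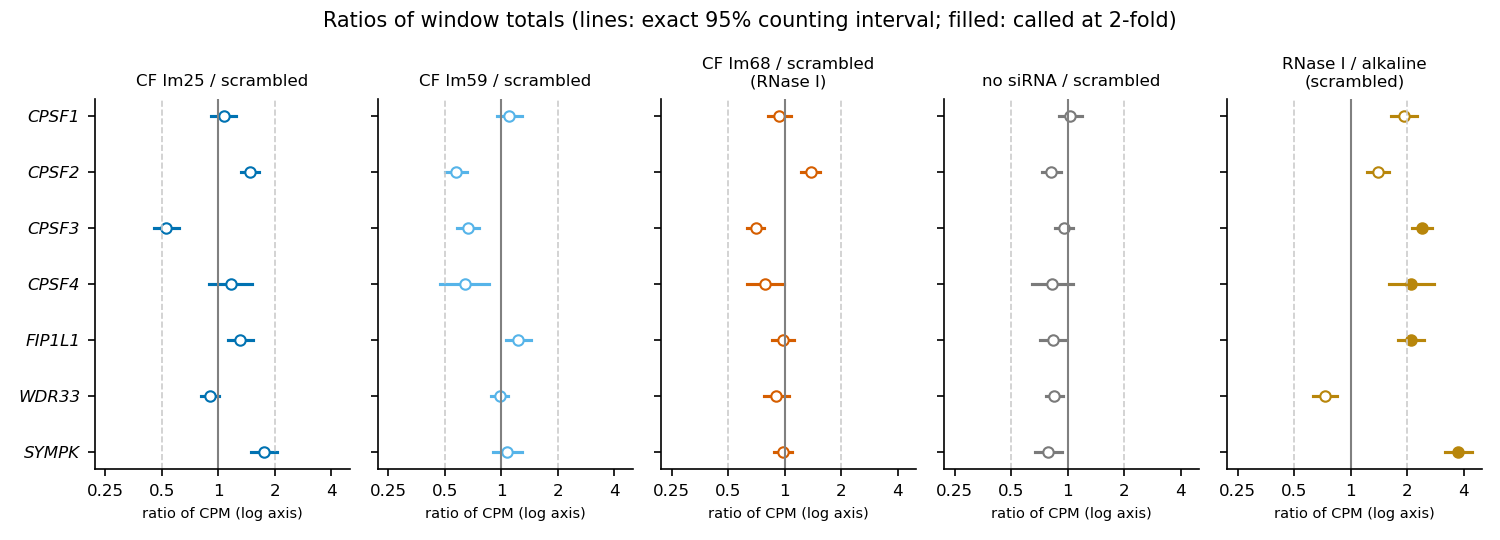
Ratio of window totals (x axis, log scale) for the 7 genes (y axis) in 5 comparisons of 1 library with another; lines are exact 95% counting intervals and filled points passed the 2-fold rule. No siRNA comparison has a filled point, while RNase I against alkaline has 4, up to 3.74 times for SYMPK.

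Use of alternative ends was read as the share of the upstream site among the 2 most used sites of a unit. A shift was called at 20 percentage points or more, with 50 reads or more over the pair in both libraries and an interval excluding 0. In the unit holding the most used site of each gene, 1 of 7 pairs shifted upstream after CF Im25 siRNA, where 18.3% of all pairs did, and 0 shifted downstream, where 2.81% did. After CF Im59 siRNA 1 of 7 shifted upstream against 2.53% of all pairs and 0 downstream against 4.76%. After CF Im68 siRNA 1 of 6 tested shifted upstream against 24.4% and 0 downstream against 1.78%. Untreated cells gave 0 of 7 in either direction, against 1.21% upstream and 2.52% downstream.

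SYMPK was the gene called in both alkaline knockdowns. Its upstream site at chr19:46322167, shown above as the end with AATAAA, held 33.2% of the pair in untreated cells, 18.1% with scrambled, 57.5% with CF Im25 and 45.0% with CF Im59 siRNA, and 2.10% and 2.27% in the scrambled and CF Im68 RNase I libraries. The downstream site at chr19:46318708 held the rest. The CF Im25 value was 39.4 points above scrambled (29.8 to 47.3) and 24.3 above untreated (16.1 to 32.1), so it was called against either control. Against the untreated library 20.4% of all pairs shifted upstream in the CF Im25 library and 1.62% in the CF Im59 library. The CF Im59 value was 26.9 points above scrambled (16.4 to 36) and 11.8 above untreated (2.57 to 20.8), and the second of these was not called. The alkaline controls themselves differed by 15.1 points (5.22 to 23.8). In reads, the upstream site went from 21 with scrambled siRNA to 195 with CF Im25 siRNA, 8.33 times the level (5.30 to 13.8), and the rise in the SYMPK total lay mostly there. The downstream site had 95 and 144 reads in those libraries.

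CPSF2 was the gene called after CF Im68 siRNA. Its upstream site at chr14:92628408 lay 2136 nt before the last site at chr14:92630544 and held 86.0% of the pair in untreated cells, 88.8% with scrambled, 98.8% with CF Im25 and 87.5% with CF Im59 siRNA. In the RNase I libraries it held 43.9% with scrambled and 94.0% with CF Im68 siRNA, a difference of 50.1 points (42.9 to 57.0). The scrambled RNase I library stood apart from the other 5, all at 86.0% or more, so the CF Im68 shift rests on that 1 control. The upstream site was at 4.28 times the scrambled level after CF Im68 siRNA (3.42 to 5.4), from 86 to 860 reads at different depths, and the last site was 4.68-fold lower (3.35 to 6.59). After CF Im25 siRNA the upstream site was at 2.01 times the scrambled level (1.76 to 2.29), and the last site had 9 reads against 41. The gain in the CPSF2 total in these libraries was thus at the upstream site. The share of the upstream site was 9.98 points higher (6.94 to 13.7) after CF Im25 siRNA, and from the 88.8% of the scrambled library a call at 20 points upstream could not occur.

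For WDR33 and FIP1L1 the most used site lay in the body of the gene, far from the last unit, and the pair in the last unit was added after the values were seen. In the WDR33 last unit the sites at chr2:128463492 and chr2:128458607 lay 4885 nt apart. The upstream one held 34.7% of the pair in untreated cells, 22.8% with scrambled, 82.3% with CF Im25 and 46.5% with CF Im59 siRNA, and 65.7% and 60.2% in the scrambled and CF Im68 RNase I libraries. The scrambled libraries thus differed by method, at 22.8% with alkaline hydrolysis and 65.7% with RNase I. The CF Im25 library was the highest of the 6. It lay 59.5 points above scrambled (49.0 to 67.7) and 47.6 above untreated (37.6 to 55.8). CF Im59 was 23.7 points above scrambled (12.1 to 34.6) and 11.7 above untreated (0.668 to 22.7), the latter not called, and CF Im68 differed from its control by -5.47 points (-18.1 to 8.21). The last WDR33 site fell from 115 to 23 reads after CF Im25 siRNA, 5.57-fold lower (3.54 to 9.14), while the upstream one was 2.82 times higher (1.90 to 4.29), with the WDR33 total at 0.906 times (0.810 to 1.01). Ends of the gene were therefore redistributed within a total that differed little. With this choice of unit, 2 of 6 tested genes shifted upstream after CF Im25 siRNA, SYMPK and WDR33; 18.3% of all pairs did so, and the unit was chosen with these values in view.

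FIP1L1 differed by method as well. Its last unit holds sites at chr4:54325527 and chr4:54325841, 314 nt apart, and the upstream one took 5.88%, 17.3%, 15.0% and 7.69% of the pair without siRNA and with scrambled, CF Im25 and CF Im59 siRNA after alkaline hydrolysis. After RNase I digestion it took 93.2% with scrambled and 93.1% with CF Im68 siRNA. The fragmentation methods did not overlap, and the 2 RNase I libraries differed by -0.0814 points (-7.82 to 8.85). The CF Im25 pair had 40 reads and was not tested.

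**Figure D3:**
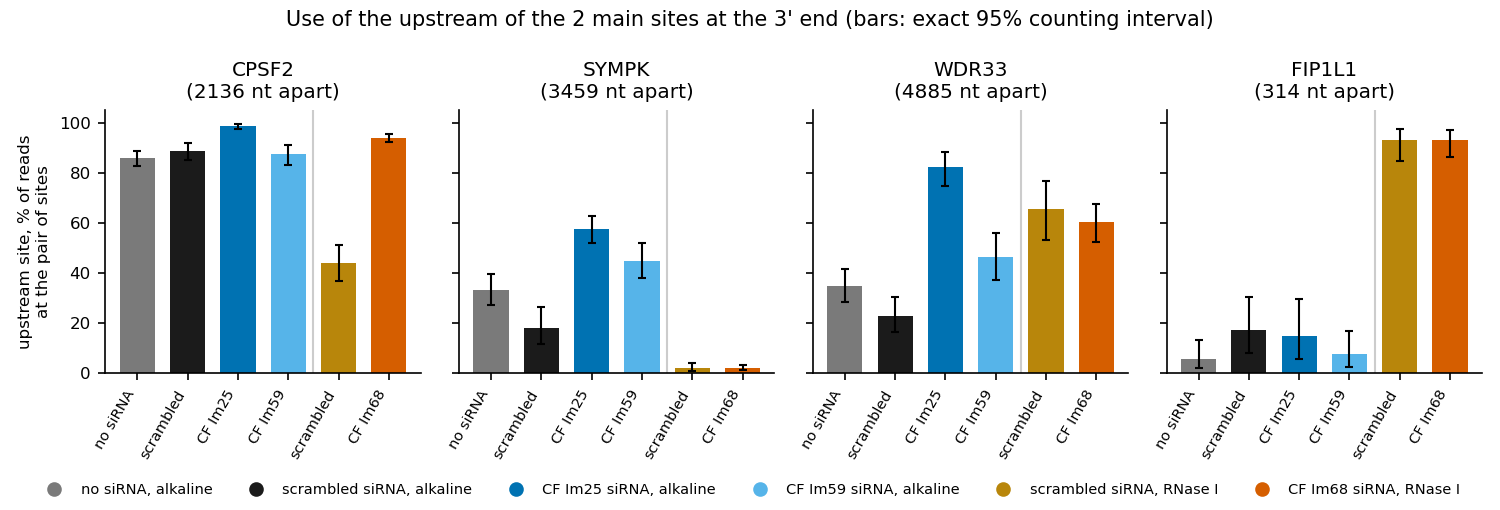
Share of the upstream site among the 2 main sites at the 3′ end (y axis, percent of the reads at the pair) in the 6 libraries, for CPSF2, SYMPK, WDR33 and FIP1L1; bars are single libraries, error bars exact 95% counting intervals and the grey line parts alkaline from RNase I libraries. WDR33 and SYMPK reach 82.3% and 57.5% after CF Im25 siRNA, CPSF2 is at 43.9% in the scrambled RNase I library alone, and FIP1L1 parts by fragmentation method.

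Ends within the gene body made up most reads of FIP1L1 and WDR33. Reads before the last unit were 69.7%, 70.3%, 83.0% and 80.8% of FIP1L1 in the untreated, scrambled, CF Im25 and CF Im59 alkaline libraries and 72.8% and 83.4% in the scrambled and CF Im68 RNase I libraries. Each knockdown library was above its own control, by 12.6 points for CF Im25 (6.34 to 19.0), 10.5 for CF Im59 (4.21 to 16.9) and 10.6 for CF Im68 (5.29 to 16.3), while untreated and scrambled differed by -0.628 points (-7.23 to 6.18). Most of these FIP1L1 reads were at chr4:54303521, 22320 nt before the last site, with 45.8% of all window reads in untreated cells, 46.6% with scrambled, 63.8% with CF Im25 and 59.9% with CF Im59 siRNA, and 61.8% and 76.1% in the RNase I libraries. That site was unusually sharp: 99.2% of its reads lay at 1 nucleotide, where the median over all nuclear sites was 65.7% and the upper quartile 87.8%. Among the 37 sites, 9 had 95% or more of their reads at 1 nucleotide (24.3%), against 13.7% of all sites. What sets such ends apart was not tested. The hg19 sequence after the sites was not at hand, so priming within A-rich stretches of transcripts was not checked for any site.

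WDR33 held 68.9% of its reads before the last unit with scrambled siRNA and 63.7% to 69.4% in the other 5 libraries. No siRNA moved this share beyond its interval, with -0.498 points for CF Im25 (-5.63 to 4.64) and 1.96 for CF Im68 (-5.17 to 9.31). Its most used site, chr2:128562672, lay 104065 nt before the last site, near the start of the window, and 97% of its reads were at 1 nucleotide. A pair of less sharp sites 63768 and 63442 nt before the last site went opposite ways after CF Im25 siRNA. The upstream one, chr2:128522375, was 3.21 times the scrambled level (1.91 to 5.66, 68 against 19 reads), and the downstream one, chr2:128522049, was 2.10-fold lower (1.52 to 2.93, 59 against 111 reads). After CF Im59 siRNA the downstream one was 2.78-fold lower (1.99 to 3.94), with 22 reads at the upstream one. Against the untreated library the CF Im25 value of the downstream site was 0.647 times and no longer called.

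The 5 other genes had fewer reads before the last unit. In the scrambled alkaline library the share was 11% for CPSF1, 6.40% for CPSF2, 7.63% for CPSF3, 35% for CPSF4 and 26.5% for SYMPK. CPSF4 was the highest of these at 27.6% to 35.6% in the alkaline libraries and 9.40% and 14.4% with RNase I. Against scrambled siRNA the SYMPK share differed by -10.9 points after CF Im25 siRNA (-17.7 to -4.56) and by -8.53 after CF Im59 siRNA (-15.6 to -1.64). The untreated library was on the same side, at -8.31 points (-15.4 to -1.49).

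**Figure D4:**
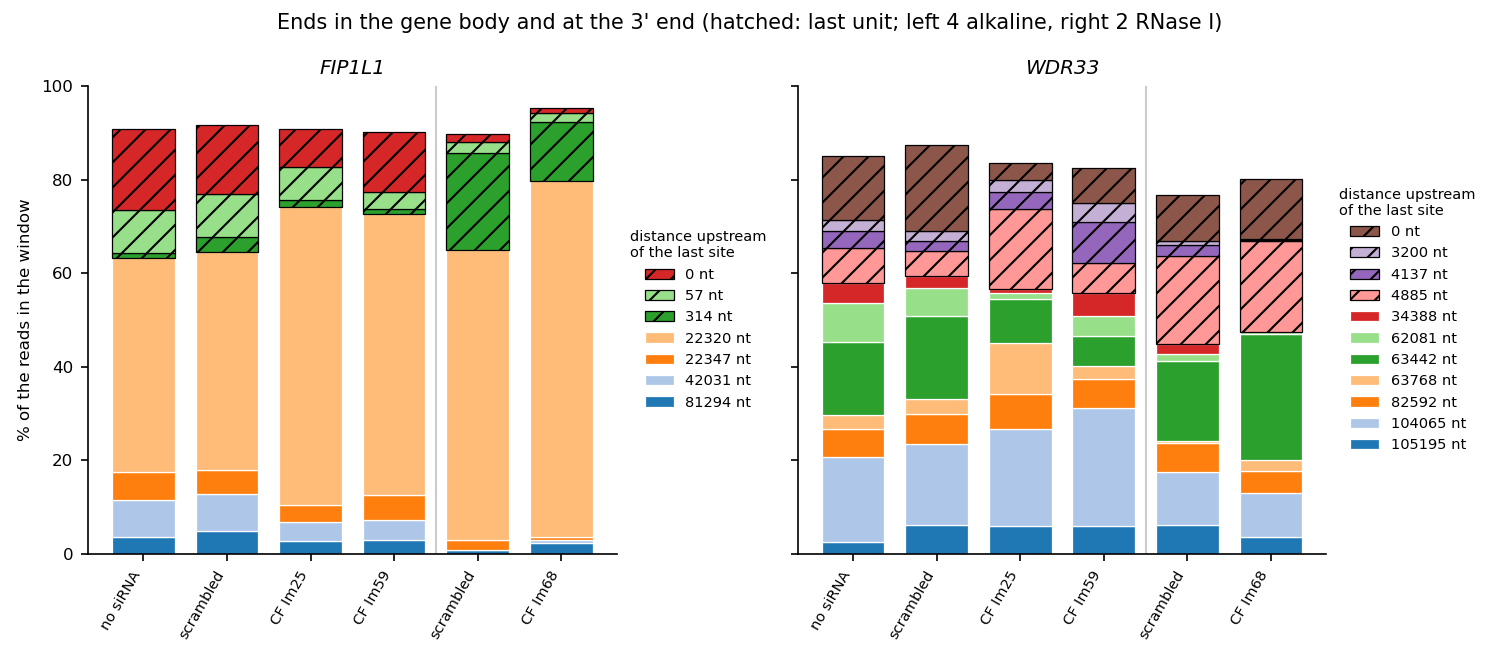
Share of the window reads (y axis, percent) at each site of FIP1L1 and WDR33 in the 6 libraries; colours are sites, labelled by their distance before the last site, hatching marks the last unit, and the space above each bar is reads outside these sites. In FIP1L1 the site 22320 nt before the last one holds 45.8% to 76.1%. In WDR33 the hatched site at 4885 nt holds 5.46% with scrambled and 17.0% with CF Im25 siRNA after alkaline hydrolysis. It holds 18.8% and 19.3% in the scrambled and CF Im68 RNase I libraries.

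Over single sites the 2-fold rule called 6 of 14 tested after CF Im25 siRNA, 4 higher and 2 lower, where it called 36.2% of all sites, 19.2% higher and 17% lower. After CF Im59 siRNA it called 4 of 16, 2 in each direction, against 23.3% of all sites, 10.4% higher and 13% lower. After CF Im68 siRNA it called 3 of 14, 1 higher and 2 lower, against 34.6%, 23.2% higher and 11.4% lower. In untreated cells it called 1 of 17, lower, against 10.5%, 5.62% higher and 4.84% lower, and that 1 was the SYMPK site at chr19:46320704 (2.05-fold lower, 1.38 to 3.05). The counts for these genes are thus near the background.

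The largest differences in totals lay between the fragmentation methods. With scrambled siRNA in both, RNase I gave 4 of 7 totals called higher, where 23.8% of all units were, and 0 lower, where 34.8% were. In all, 58.6% of units were called here, so the number of calls among the 7 genes is near the background and the direction is what the 4 called genes share. SYMPK was 3.74 times the alkaline level (3.19 to 4.4), CPSF3 2.39 times (2.11 to 2.70), CPSF4 2.10 times (1.60 to 2.77) and FIP1L1 2.09 times (1.78 to 2.45). CPSF1 was at 1.93 times (1.64 to 2.26) and was called as well with TMM scaling, at 2.17 times, which raised log2 ratios by 0.18. WDR33 was 1.37-fold lower (1.18 to 1.60). The median log2 ratio was 1.06 over the 7 genes and -0.32 over all units tested. Both RNase I libraries lay above all 4 alkaline libraries for CPSF1, CPSF3, CPSF4, FIP1L1 and SYMPK. The scrambled libraries also differed in depth, so fragmentation and any other difference between the preparations cannot be told apart.

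Pairs of sites differed by method as well. The CPSF2 difference was -44.9 points (-52.3 to -37) and the CPSF3 difference 31.7 points (27.7 to 35.7), which made 1 of 6 tested pairs upstream against 24.7% of all pairs and 1 of 6 downstream against 21.1%. Single sites were called in 11 of 14, 7 higher and 4 lower, against 68% of all sites, 27.7% higher and 40.3% lower. Of these, the SYMPK site at chr19:46318708, whose annotated end holds neither hexamer, was 8.19 times higher (6.54 to 10.3).

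The close pair in CPSF3 shows how near the methods' ends can lie. The ends of CPSF3 within 10 nt of chr2:9613230 were joined by a second group 20 to 35 nt upstream that made up 1.16%, 2.16%, 4.53% and 1.39% of both groups in the untreated, scrambled, CF Im25 and CF Im59 alkaline libraries. With RNase I the upstream group made up 38.1% with scrambled and 28.7% with CF Im68 siRNA. CPSF4 was at 1.87%, 3.08%, 1.04% and 2.00% with alkaline hydrolysis and 24.8% and 29.4% with RNase I. CPSF1 had such ends in all libraries, at 28.0%, 32.4%, 35.8% and 22.2% and at 55.9% and 47.7%. The RNase I values lay above the alkaline ones in these 3 genes, and also in CPSF2 (8.14% and 19.1% against at most 6.18%) and WDR33 (15.4% and 14.2% against at most 9.43%). The CPSF2 interval in the scrambled RNase I library (3.34% to 16.1%, 7 upstream reads) overlapped those of all 4 alkaline libraries. That of the CF Im68 library (16.5% to 21.9%) lay above them. The WDR33 intervals with RNase I (6.88% to 28.1% and 8.14% to 22.3%) overlapped that of the CF Im59 library (3.13% to 20.7%). SYMPK was lower with RNase I, at 0.559% and 1.45% against 2.05% to 6.06%. This rested on 2 and 12 upstream reads against 3 to 6 in the alkaline libraries. Both RNase I intervals of SYMPK overlapped those of the untreated and scrambled alkaline libraries. FIP1L1, measured at chr4:54325527, was at 0% in every library, with 2 to 9 reads in each alkaline one. Its gene-body end, chr4:54303521, was read by another measure, the share of the pair of sites. There a site 27 nt upstream held 11.4%, 10%, 5.26% and 8.39% of the pair with alkaline hydrolysis and 3.35% and 0.871% with RNase I. The share of ends 20 to 35 nt upstream was also taken at the highest site of every unit at 10 CPM or more. It had a median of 0.126% and an upper quartile of 4.05% in the scrambled RNase I library, so most units did not carry such a second group. This measure was added after the values were seen. Between RNase I libraries, the CPSF3 site 26 nt upstream was 2.14-fold lower after CF Im68 siRNA (1.74 to 2.61).

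**Figure D5:**
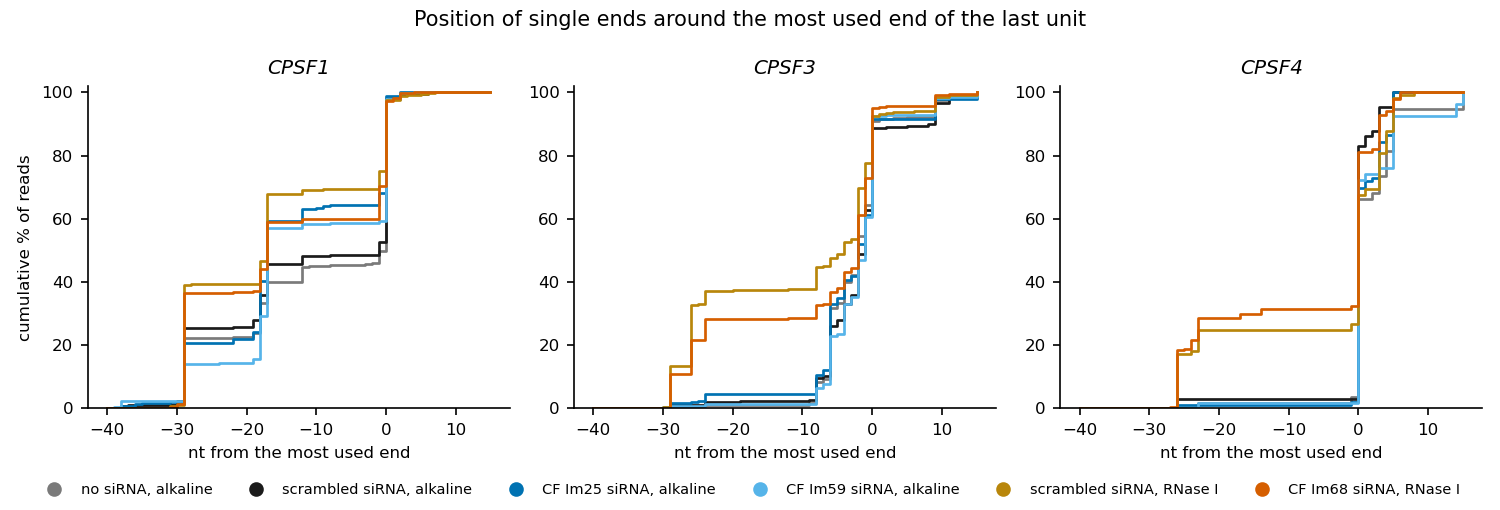
Cumulative share of reads (y axis, percent) by distance from the most used end of the last unit (x axis, nt, negative is upstream) for CPSF1, CPSF3 and CPSF4, 1 line for each library. The RNase I lines step up between 20 and 35 nt upstream in CPSF3 and CPSF4, where the alkaline lines stay near 0 up to 10 nt upstream.

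Of 13 other genes of 3′ end processing, the total-read rule called 1 of 13 lower after CF Im25 siRNA (NUDT21, 7.37-fold, 6.10 to 8.96), 1 of 13 lower after CF Im59 siRNA (CPSF7, 2.27-fold, 1.99 to 2.60) and 1 of 12 tested lower after CF Im68 siRNA (CPSF6, 2.93-fold, 2.60 to 3.31), each the gene that the siRNA targets. None was called higher in these comparisons, and 0 of 13 were called in untreated cells. NUDT21, at 1.82 times (1.69 to 1.97) after CF Im68 siRNA, was called higher with TMM or median-of-ratios scaling. The median log2 ratio of this list was 0.08, -0.3 and -0.09 for the CF Im25, CF Im59 and CF Im68 comparisons. RNase I against alkaline called 5 higher (CPSF6, PCF11, PABPN1, RBBP6 and SSU72, 2.01 to 3.65 times) and 3 lower (CSTF1, CLP1 and WDR82, 2.28-fold to 4.96-fold), near the 58.6% of all units called. In that comparison the median log2 ratio of the list was 0.53, against 1.06 over the 7 genes and -0.32 over all units tested. Among pairs, 3 of 12 shifted upstream and 1 downstream after CF Im25 siRNA, namely CPSF6, CSTF2 and PAPOLA against CLP1, where 18.3% and 2.81% of all pairs did. After CF Im68 siRNA 3 of 11 shifted upstream, namely NUDT21, CPSF7 and PAPOLA, against 24.4% of all pairs. After CF Im59 siRNA 1 of 12 shifted downstream, CLP1, against 4.76%. Against the untreated library 0 of 12 shifted downstream after CF Im25 or CF Im59 siRNA, so neither CLP1 call held with that control. With a site radius of 10 nt both PAPOLA values turned direction. Over the 4 log2 ratios of totals to scrambled siRNA, the listed gene with the smallest Euclidean distance was PABPN1 for CPSF1 (0.21), CSTF2 for CPSF2 (0.58), WDR82 for CPSF3 (0.40) and RBBP6 for CPSF4 (0.58). It was CSTF3 for FIP1L1 (0.35) and SYMPK (0.55), and PAPOLA for WDR33 (0.47). Of these ratios 3 share a control library.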

How the data were processed

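The deposited tables list genome positions with a whole-number count of A-seq reads per position and strand; these counts were deposited by the authors without scaling. Positions are on hg19 (GRCh37), per the submitters' processing notes. Which aligner and read filters were used, and whether duplicates were removed, is not given in the sources used here.

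The 7 genes and all lists were chosen with earlier results of these data known. Positions were joined into sites greedily from the highest mean CPM, within 25 nt, and sites at a mean of 1 CPM or more were joined into 28095 units with gaps of at most 5 kb. The pair of a unit is its 2 most used sites, each with at least 5% of its reads, which gave 8992 pairs; a unit may run past the window, as for CSTF2. Ratios have exact conditional binomial 95% intervals, levels and shares exact Clopper-Pearson intervals, and differences in share Newcombe intervals. Sites were named at 5% or more of the window reads in any library. All members were named, other pathway genes where called or nearest. The calculations were tested on simulated counts. Python 3.11.15, numpy 2.4.6 and R with edgeR (TMM factors alone) were used.

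The windows of the 13 other genes were written from knowledge of hg19, with chromosomes checked against RefSeq. The windows of CPSF2 (46001 nt) and CSTF1 were shorter than the RefSeq GRCh38 gene (CPSF2, 50177 nt), but no site at 1 CPM or more lay within 10000 nt after the CPSF2 window, while 1 lay after that of FIP1L1. Ends were not converted between builds. The sequence of 1 annotated end is not reported here.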

Additional observations from a re-analysis of the deposited data

How the results depend on the processing

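No paired analysis was possible because each group has 1 library, and for the same reason no library could be left out. The 7 totals gave 0 calls for each siRNA under the other scalings, read minimums, reads at the main unit only and libraries thinned to the smallest total, except that 1 (SYMPK) was called after CF Im25 siRNA with untreated cells as the control. Upstream shifts of pairs went from 1 to 2 for CF Im25 and for CF Im59 with a site radius of 10 nt (CPSF1 added), and from 1 to 2 for each with the pair in the last unit. They went to 0 for CF Im59 with untreated cells as the control. In RNase I against alkaline the 2 pairs called became 4 with a radius of 10 nt, 1 with 50 nt and 4 with the pair in the last unit. With a minimum of 20 reads the single sites called became 11 for CF Im25, 7 for CF Im59, 5 for CF Im68, 4 for untreated cells and 19 for RNase I, and with untreated cells as the control 2 for CF Im59. For the other pathway genes, totals called became 2 for CF Im25 at the main unit only and 2 for CF Im68 with TMM or median-of-ratios scaling (NUDT21 added, higher). Their pairs called became 2 for CF Im25 with a gap of 2 kb, 1 for CF Im68 with a gap of 2 kb or a radius of 10 nt, and 0 for CF Im59 with a radius of 50 nt or with untreated cells as the control. Among called values, directions reversed for 0 of the 7 genes and for 3 others: PAPOLA with a radius of 10 nt (-6.24 points for CF Im25 and -2.12 for CF Im68), and, for RNase I, NUDT21 (83.3 with a radius of 10 nt and 83.8 with a gap of 2 kb) and RBBP6 (18.8 with a gap of 2 kb, and a mean end 520 nt further upstream). Counting each member under each alternative, a value passed the rule that did not as reported 4 times among window totals, 8 among pair shares and 26 among single sites, and the reverse occurred 0, 1 and 9 times. The cause was not tested. Sites under 50 reads in both libraries were not tested, by the choice of that minimum.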

Other observations

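Several minor ends of these genes were nearly absent with 1 fragmentation method. A CPSF2 end at chr14:92620751, 9793 nt before the last site, had 1 to 2 reads in each of the 4 alkaline libraries and 34 and 36 reads in the scrambled and CF Im68 RNase I libraries. SYMPK had an end at chr19:46320704 with 52, 56, 44 and 72 reads in the untreated, scrambled, CF Im25 and CF Im59 alkaline libraries and 5 and 12 reads with RNase I, 97.1% of them at 1 nucleotide. In WDR33 the end at chr2:128462744 was 4.11 times the scrambled level after CF Im59 siRNA (2.26 to 8.10, 71 against 13 reads), with 23 reads after CF Im25 siRNA and 37 in untreated cells. It lay within the last unit, 748 nt downstream of the site that was higher after CF Im25 siRNA.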
